A study of Mus musculus with 4 samples.

Results

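The circadian clock genes Bmal1 (listed as Arntl in the array annotation), Clock, Npas2, Per1, Per2, Per3, Cry1 and Bhlhe40 and the PAR bZIP genes Dbp and Tef were followed in mouse heart. They were taken by symbol: every probe set annotated to a single gene symbol among these 10 was kept. This gave 12 probe sets for the 10 genes, out of 8251 genes with such a probe set on the array. Ventricles of mice at 6 months of age were studied in 2 groups, 2 arrays from transgenic mice (TG) with moderate, heart-specific overexpression of serum response factor (SRF) and 2 arrays from non-transgenic mice (nTG). SRF binds CArG boxes and drives muscle genes, cytoskeletal genes and immediate early genes. The promoter that drives the transgene, the strain, the hour of tissue collection and whether an array stands for 1 animal are, in the sources used here, not given. The p values therefore cover the spread between these arrays alone, which may be technical. The transgene's own transcript is not analysed here. Over all tested probe sets the log2 signals of the TG arrays correlated at 0.981 and those of the nTG arrays at 0.971, against 0.942 to 0.949 between a TG and an nTG array.

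The molecular clock is a feedback loop of transcription. BMAL1 pairs with CLOCK, or with its relative NPAS2, and the pair binds E-boxes to drive the Per and Cry genes, whose proteins return to inhibit it. REV-ERB and ROR receptors act on Bmal1 through ROR elements (ROREs), and the PAR bZIP factors DBP and TEF carry the rhythm to genes with D-boxes. BHLHE40, also known as DEC1, is a basic helix-loop-helix repressor that binds E-boxes and can oppose the CLOCK pair. Heart muscle cells hold a clock of their own, and the RNA of most of these genes rises and falls over the day.

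The letters through which the loop acts were looked for in RefSeq promoter windows (build GRCm38.p6), each running from 250 bases before to 50 bases after an annotated start. Windows were matched for 8 of the 10 genes, 13 in all; Per2 and Bhlhe40 had none in the table. The sites below match elements of the loop named above: E-boxes in Per1, Cry1 and Tef, paired D-boxes in Per3 and a RORE in Bmal1. The windows of Clock, Npas2 and Dbp held none of the letters searched. Each is a stretch of 30 bases, 5′ to 3′ on the gene's strand, with the matched letters in capitals.
Per1 E-box, chr11:69098771-69098800, plus strand, 166 bases before the start: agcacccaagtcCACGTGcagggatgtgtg
Cry1 E-box, chr10:85185097-85185126, minus strand, 60 bases before the start: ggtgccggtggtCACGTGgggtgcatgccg
Tef E-box at a first annotated start, chr15:81802534-81802563, plus strand, 127 bases before that start: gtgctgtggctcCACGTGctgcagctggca
Tef E-box at a second annotated start, chr15:81811264-81811293, plus strand, 138 bases before the start: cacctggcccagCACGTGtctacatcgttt
Per3 D-box, chr4:151044852-151044881, minus strand, 205 bases before the start: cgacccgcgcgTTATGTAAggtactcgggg
Per3 D-box, chr4:151044805-151044834, minus strand, 158 bases before the start: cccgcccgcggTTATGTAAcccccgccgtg
Bmal1 RORE, chr7:113207528-113207557, plus strand, 26 bases after the start: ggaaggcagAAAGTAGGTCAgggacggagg

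Both strands were searched. The E-box CACGTG was present in 4 of the 13 member windows (3 of 8 genes) and in 7.15% of 32851 windows of the same length over all genes. The D-box TTATGTAA was in 1 of the 13 and in 0.938% of all windows, and the RORE consensus was in 1 of the 13 and in 0.384%. The RORE spelling was widened after a first search, so its share among the members is not an independent comparison. The variant E-box CACGTT, which overlapped no CACGTG here, was found in 1 member window, that of Cry1, and in 4.68% of all windows. The palindromic D-box TTACGTAA, the cAMP response element TGACGTCA and the CArG box were in 0 of the 13 member windows, against 0.119%, 1.79% and 1.63% of all windows. These are matches of letters in short windows and say nothing of binding.

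Of the clock and PAR bZIP genes, Bhlhe40 was the one that differed between the groups after adjustment: its RNA was 1.55-fold higher in TG ventricle, a call that held in 8 of 14 alternative fits. In bulk RNA, more or fewer cells of a type cannot be told apart from more or less RNA per cell. Neither the activators Bmal1 and Clock nor the output factors Dbp and Tef passed the test, and Per1, Per3 and Cry1 did not pass it either. Values were compared as log2(signal + 9) with limma, an empirical Bayes linear model fitted to all probe sets, and the dimmest 40% of probe sets, by their mean over the 4 arrays, were left out. P values were adjusted by Benjamini-Hochberg over all probe sets tested. Of the 12 member probe sets 8 passed this filter, 1 for each of 8 genes. Among those 8, 1 was called higher, 0 were called lower and 7 did not pass at an adjusted p of 0.05. By unadjusted p below 0.05, 1 was higher (Bhlhe40) and 1 lower (Per1).

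Over all 7453 probe sets tested, 7.93% were called, 4.07% (303) higher and 3.86% (288) lower, and 24.2% had an unadjusted p below 0.05. After median centring of the arrays the split was 397 higher and 197 lower. The count of 1 in 8 among the members is near these shares. TG and nTG signals were fully separate for 4 of the 8 tested members, against 55.9% of all probe sets tested. The median log2 change was 0.05 over the 8 tested members and -0.01 over all tested, and 5 of the 8 lay within the middle range of all tested probe sets, from -0.23 to 0.22 (lower to upper quartile). In 5 of the 8 the difference between the groups was smaller than the gap between the arrays of a single group.

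**Figure D1:**
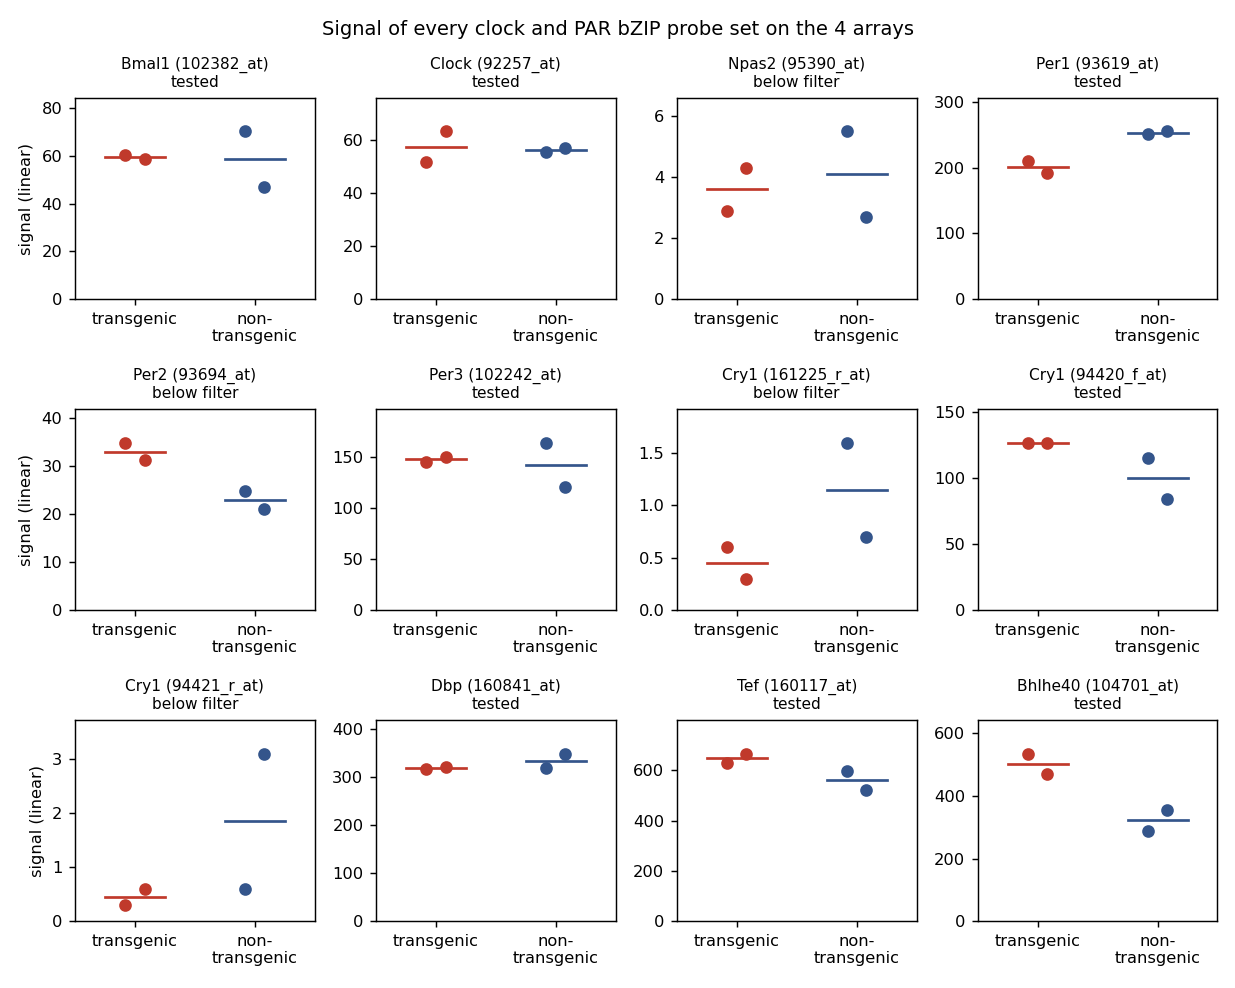
Signal of each of the 12 member probe sets on the 2 TG arrays (red, left) and the 2 nTG arrays (blue, right), on linear axes that start at 0; each point is 1 array and the line is the group mean. Bhlhe40 shows TG signals of 533.6 and 467.8, both above the nTG signals of 288.8 and 354.2, while for Bmal1, Clock, Per3 and Dbp the groups overlap.

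The activating arm was represented by Bmal1 and Clock. Bmal1, the bHLH-PAS partner without which the loop does not run, had signals of 60.3 and 58.7 on the TG arrays and 70.2 and 46.8 on the nTG arrays. The TG arrays lay between the nTG arrays, and the log2 change was 0.04 ± 0.24 (SE, 95% interval -0.52 to 0.60, n = 2 arrays each). Clock, which pairs with BMAL1, had 51.5 and 63.1 on the TG arrays and 55.2 and 56.7 on the nTG arrays. Here the nTG arrays lay between the TG arrays, with a log2 change of 0.02 ± 0.21 (SE, 95% interval -0.47 to 0.52). The limma adjusted p was 0.937 for Bmal1 and 0.961 for Clock. Changes within those intervals cannot be set apart from 0 with this number of arrays. Npas2, which can stand in for Clock, was dim on every array, at 2.9 and 4.3 on the TG arrays and 5.5 and 2.7 on the nTG arrays, and was below the filter.

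No period or cryptochrome gene among the members passed the test, and their log2 changes had both signs. Per1, a period protein gene that also responds quickly to outside signals, had signals of 210.7 and 192.6 on the TG arrays and 251.8 and 255.1 on the nTG arrays. Both TG arrays were below both nTG arrays. The log2 change was -0.32 ± 0.13 (SE, 95% interval -0.62 to -0.01, n = 2 each), with an unadjusted p of 0.0422 and a limma adjusted p of 0.189. Per1 was past the threshold under none of the alternatives run (Benjamini-Hochberg adjusted p from 0.157 to 0.514). Per3, the period gene whose window holds the paired D-boxes, had 145.3 and 150.7 on the TG arrays and 164.5 and 121.0 on the nTG arrays. Its TG arrays fell inside the nTG range, and the log2 change was 0.06 ± 0.18 (SE, 95% interval -0.36 to 0.49), with a limma adjusted p of 0.866.

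Per2 was below the filter, with 34.8 and 31.1 on the TG arrays and 24.8 and 21.0 on the nTG arrays. Its TG arrays were both above its nTG arrays. When the filter was dropped, the log2 change was 0.40 ± 0.28 (SE, 95% interval -0.29 to 1.08), with a limma adjusted p of 0.514. Per1 and Per2 thus had values on opposite sides of 0, and neither passed the test.

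Cry1, the cryptochrome that represses the CLOCK pair, was read by 3 probe sets. The bright one, of the family type (suffix f), gave 126.7 and 126.2 on the TG arrays and 115.4 and 84.0 on the nTG arrays. The TG arrays were almost equal and above both nTG arrays, which differed more from each other than the groups did. The log2 change was 0.33 ± 0.19 (SE, 95% interval -0.12 to 0.78), with a limma adjusted p of 0.331. It was 0.54 without nTG replicate 1 and 0.12 without nTG replicate 2. The other 2 probe sets (suffix r) were between 0.3 and 3.1 on all arrays and were below the filter. Their log2 changes, at -0.10 and -0.19, had the opposite sign to that of the bright probe set. The letter f in a probe set name marks probes that can match several related sequences, and r marks a set for which the design rules were relaxed.

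**Figure D2:**
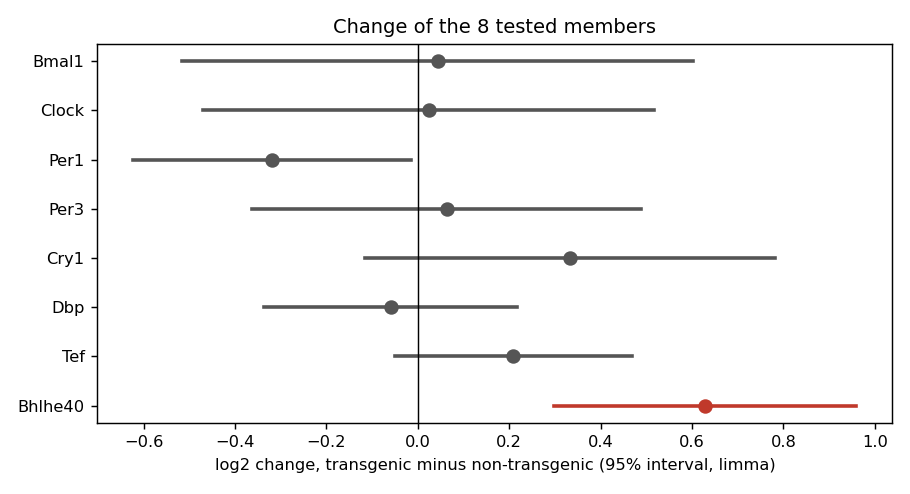
Log2 change, TG minus nTG, of the 8 tested members (points) with the 95% interval of the limma fit (bars). Bhlhe40 (red) is the called member at 0.63; the interval of Per1 runs from -0.62 to -0.01, and the other 6 intervals take in 0.

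Neither PAR bZIP factor passed the test. Dbp, the factor whose RNA swings most widely over the day in many tissues, had 317.6 and 321.0 on the TG arrays and 318.6 and 348.3 on the nTG arrays. The TG arrays were almost equal, and one of them exceeded the lower nTG array. The log2 change was -0.06 ± 0.12 (SE, 95% interval -0.34 to 0.22, n = 2 each), with a limma adjusted p of 0.798, and it was 0.02 after median centring. Tef, its relative with a flatter rhythm, had 628.8 and 665.8 on the TG arrays and 595.8 and 523.5 on the nTG arrays. Its groups did not overlap, and the log2 change was 0.21 ± 0.11 (SE, 95% interval -0.05 to 0.47), with a limma adjusted p of 0.291. The change for Tef was 0.30 without nTG replicate 1 and 0.12 without nTG replicate 2. The intervals of Dbp and Tef were among the narrowest of the members.

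Bhlhe40 had signals of 533.6 and 467.8 on the TG arrays and 288.8 and 354.2 on the nTG arrays, with means of 501 ± 46.5 in TG and 321.5 ± 46.2 in nTG (SD, n = 2 each). Both TG arrays were well above both nTG arrays. The log2 change was 0.63 ± 0.14 (SE, 95% interval 0.30 to 0.96), with a limma adjusted p of 0.0405. Among the 303 probe sets called higher, 227 had a larger rise, so this was a moderate change on these arrays. It was also close to the threshold: 506 probe sets had a smaller adjusted p and 82 of those called had a larger one.

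The direction for Bhlhe40 was the same in all 14 alternative fits, with log2 changes from 0.49 to 0.77, but the call held in 8 of them. In limma it ended without TG replicate 1 (adjusted p = 0.157), TG replicate 2 (0.05002) or nTG replicate 1 (0.110). It also ended without the filter (0.0774), without the trend of variance on signal (0.132) and in an ordinary two-sample test without moderation (0.333), each with Benjamini-Hochberg adjustment.

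**Figure D3:**
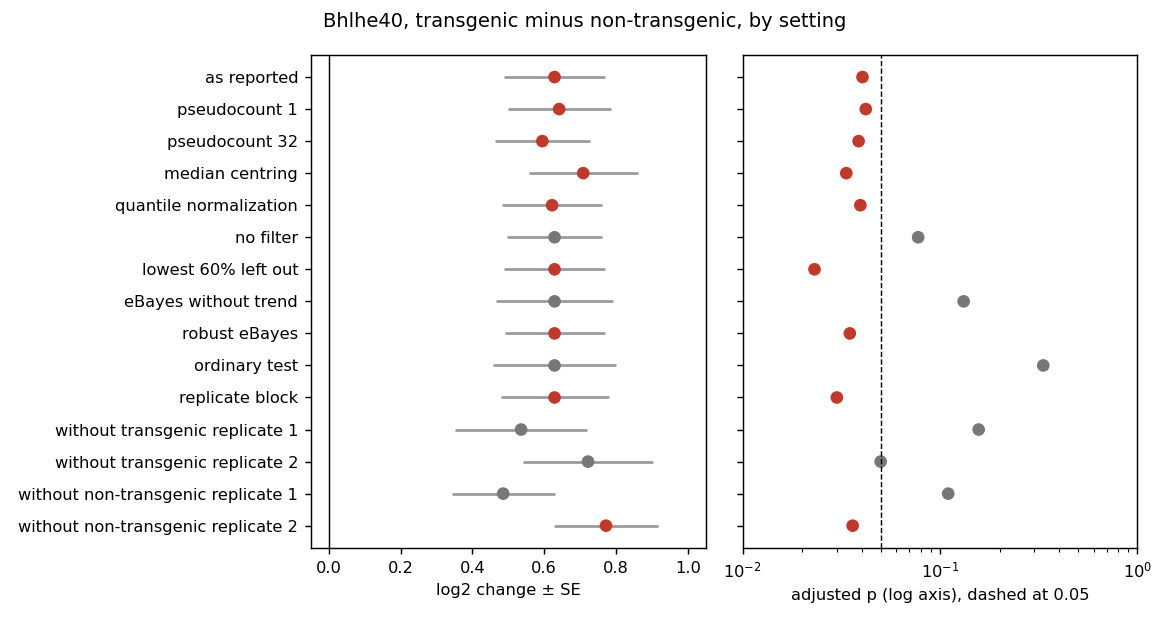
Bhlhe40, TG minus nTG, as reported and under 14 alternatives: log2 change ± SE on the left and Benjamini-Hochberg adjusted p on a log axis on the right, with red for an adjusted p at or below 0.05. All log2 changes lie between 0.49 and 0.77, while the adjusted p runs from 0.0231 to 0.333.

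**Figure D4:**
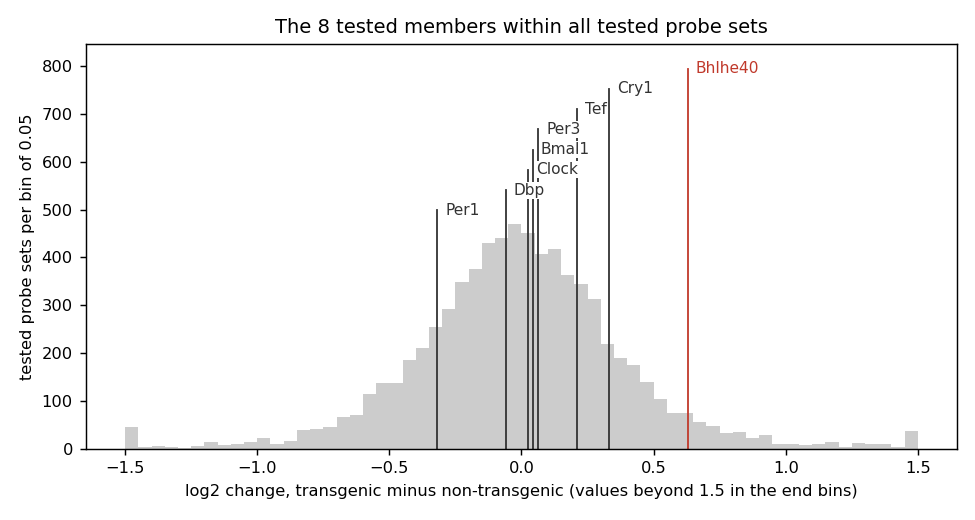
Distribution of the log2 change, TG minus nTG, over the 7453 tested probe sets (grey, values beyond 1.5 in the end bins) with the 8 tested members drawn as lines whose height has no meaning. Dbp, Clock, Bmal1 and Per3 lie near the centre, and Bhlhe40 (red) lies at 0.63, with 388 of all tested probe sets beyond it.

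Other parts of the loop were read from a list of 23 genes, of which 13 were measured and 12 passed the filter. In limma, by the brightest probe set of each gene, 0 were called higher and 0 lower, and 1 had an unadjusted p below 0.05. Their median log2 change was -0.02. That 1 was Btrc, a subunit of the ubiquitin ligase that marks period proteins for breakdown, with 70.5 and 78.7 on the TG arrays and 114.7 and 107.4 on the nTG arrays. Its groups were well apart (log2 change -0.52 ± 0.17, SE), and a second probe set gave -0.62, but the limma adjusted p values were 0.118 and 0.111. Csnk1d and Csnk1a1 encode casein kinases, a group of enzymes that phosphorylates period proteins. Csnk1d had a log2 change of 0.27 ± 0.12 and Csnk1a1 of -0.21 ± 0.10 (SE), neither past the test. A second tested probe set for Csnk1a1 gave 0.36, with smaller limma p values than Btrc (unadjusted p = 0.00928, adjusted p = 0.0835). The probe sets for Csnk1a1 thus disagreed in sign, and 1 of the other 3 for Csnk1d gave -0.04.

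The nuclear receptors and the second cryptochrome were outside the rule for naming genes and were added after their values were seen, for their place in the loop. Nr1d1, the REV-ERB alpha receptor that represses Bmal1 and is itself driven by the CLOCK pair, had 432.5 and 426.7 on the TG arrays and 464.3 and 530.6 on the nTG arrays. The TG arrays were lower, at a log2 change of -0.20, with a limma adjusted p of 0.321. Nr1d2, the beta receptor, had 288.7 and 250.6 on the TG arrays and 292.8 and 280.3 on the nTG arrays, which overlapped. Cry2 had 59.4 and 79.1 on the TG arrays and 103.7 and 79.2 on the nTG arrays, a log2 change of -0.36 that did not pass the test (limma adjusted p = 0.364).

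In a list taken as clock-driven in heart or liver, 15 of 20 genes were measured and tested. Of these 0 rose and 3 fell, while 12 stayed short of the threshold, with a median log2 change of -0.16. Over all tested probe sets, 4.07% were called higher and 3.86% lower. Cirbp, a cold-inducible RNA-binding protein, had 324.7 and 360.4 on the TG arrays and 616.0 and 498.0 on the nTG arrays. It was 1.60-fold lower in TG ventricle (log2 change -0.68 ± 0.14, SE, limma adjusted p = 0.0298). Pdk4, the kinase that restrains glucose oxidation, had 1864.9 and 1561.9 on the TG arrays and 2661.7 and 2308.0 on the nTG arrays, and fell by 0.54 ± 0.11 on the log2 scale (SE, limma adjusted p = 0.0341). Alas1, the first enzyme of haem synthesis, had 1461.9 and 1374.0 on the TG arrays and 1890.4 and 1915.5 on the nTG arrays, and fell by 0.42 ± 0.08 on the log2 scale (SE, limma adjusted p = 0.0234). The groups were well apart for all 3 of these genes. Hepatocyte markers were lower in TG in 7 of 7 tested (4 called), with summed signals of 241.4 and 257.5 on the TG arrays and 1898.5 and 3403.4 on the nTG arrays, and ventricular muscle markers were called lower in 5 of 7. Their part in the values of these outputs was not tested.

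Each of these 3 calls depended on single arrays in limma. That of Alas1 ended without any 1 of the 4 arrays (adjusted p from 0.0535 to 0.0924) and after median centring (0.0566). That of Pdk4 ended without TG replicate 2 (0.0884) or nTG replicate 1 (0.107), after median centring (0.0568) and after quantile normalization (0.0502). That of Cirbp ended without TG replicate 1 (0.0927) or nTG replicate 1 (0.0910).

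Klf10, a zinc finger factor under clock control, had 240.5 and 223.3 on the TG arrays and 175.9 and 152.9 on the nTG arrays. Its log2 change of 0.48 ± 0.14 (SE) had a limma adjusted p of 0.0956, while its dimmer second probe set was called higher (0.93, adjusted p = 0.0384). Usp2, a deubiquitinating enzyme with a strong daily rhythm in many tissues, had a log2 change of -0.26 ± 0.09 (SE) on its brighter probe set and 0.01 on the other, and neither passed the test. Klf9 had a log2 change of -0.37 ± 0.16 (SE) that did not pass, and the value rested on single nTG arrays. It was -0.61 without nTG replicate 2, where it was called (limma adjusted p = 0.0402), and -0.13 without nTG replicate 1 (0.575). The brightest probe sets of the other genes of the list, among them Nampt and Wee1, did not pass either. A dimmer probe set for Cdkn1a, the cell cycle inhibitor p21, was called higher, with 146.3 and 119.9 on the TG arrays and 60.9 and 75.3 on the nTG arrays (log2 change 0.88, limma adjusted p = 0.0376). The groups of its brighter probe set overlapped (0.23, adjusted p = 0.613), and Cdkn1a, outside the rule for naming genes, was added after its values were seen.

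**Figure D5:**
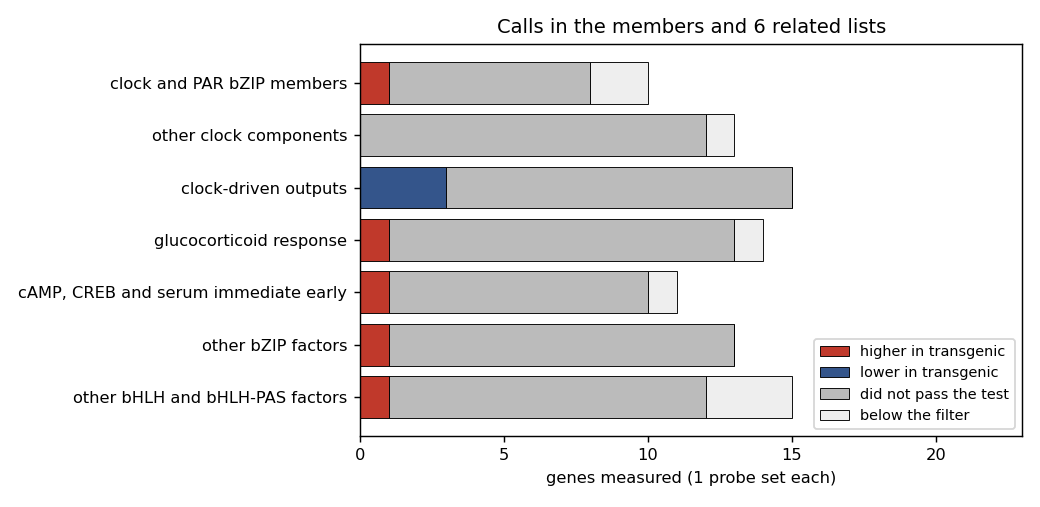
Number of measured genes (1 probe set each, the brightest) in the clock and PAR bZIP set and in 6 related lists, split into called higher in TG (red), called lower in TG (blue), not past the test (grey) and below the filter (light grey). The clock-driven outputs hold 3 lower calls and the other clock components hold none. Each of the remaining sets holds 1 higher call, beside 4.07% called higher and 3.86% lower over all tested probe sets.

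Genes of the routes that reset Per1 and Per2 were also read, since period genes respond to glucocorticoids and to cAMP and serum. In the glucocorticoid response list all 14 genes were measured and 13 tested. Of these 1 rose and 0 fell, while 12 stayed short of the threshold (median log2 change 0.01). That count is near the 4.07% called higher over all tested probe sets. The 1 was Fkbp5, a co-chaperone of the glucocorticoid receptor and a sensitive target of it, with 179.2 and 179.3 on the TG arrays and 102.3 and 78.5 on the nTG arrays. It rose 1.91-fold (log2 change 0.93 ± 0.17, SE, limma adjusted p = 0.0234). That call ended without TG replicate 1 (0.0765), TG replicate 2 (0.0675) or nTG replicate 2 (0.0606). Glul had a log2 change of -0.46 ± 0.12 (second probe set 0.08), Zbtb16 of 0.39 ± 0.14 (a second probe set, below the filter, -0.56) and Sgk1 of 0.57 ± 0.21 (SE each), none past the test. Tsc22d3, outside the rule for naming genes, was added after its values were seen. It had a log2 change of -0.78 ± 0.33 (SE, limma adjusted p = 0.203), opposite in sign to Fkbp5. Of the tested genes in this list, 7 had a log2 change above 0 and 6 below 0. Sgk1 was called without TG replicate 2 (log2 change 0.88, limma adjusted p = 0.0200), and its log2 change was 0.25 without TG replicate 1 (0.558).

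In the cAMP, CREB and serum immediate early list, 11 of 14 genes were measured and 10 tested. Of these 1 rose and 0 fell, while 9 stayed short of the threshold (median log2 change 0.04). Here too the count is near the 4.07% called higher over all tested probe sets. Nr4a1, an orphan nuclear receptor and immediate early gene, had 403.1 and 376.5 on the TG arrays and 275.0 and 230.4 on the nTG arrays, a log2 change of 0.61 ± 0.13 (SE, limma adjusted p = 0.0383). The call ended without TG replicate 1 (0.147), TG replicate 2 (0.0781) or nTG replicate 2 (0.105). Atf3 had a log2 change of 0.64 ± 0.16 and Jun of 0.38 ± 0.14 (SE), while Fosb had -0.32 ± 0.17. None of these 3 passed the test as reported, though Atf3 passed after median centring (limma adjusted p = 0.0476) and with the stricter filter (0.0376). The log2 changes of the other 2 probe sets for Atf3, both below the filter, were 1.58 and -0.07, and the first of these passed when the filter was dropped (0.0485).

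Other factors of the same DNA-binding families were set beside the members. Of 14 other bZIP factors 13 were measured and tested. Of these 1 rose and 0 fell, while 12 stayed short of the threshold, beside 4.07% called higher over all tested probe sets. The median log2 change of the tested factors was 0.25, against -0.01 over all tested probe sets, and 12 of the 13 were above 0. The factors were not tested as a set. Bach1 was at 0.45 by its brightest probe set and at -0.52 by another, below the filter. A second probe set for Nfe2l1 was at 0.10. Atf5, a factor of the stress response, had 398.5 and 425.7 on the TG arrays and 291.9 and 257.7 on the nTG arrays, and rose by 0.57 ± 0.12 on the log2 scale (SE, limma adjusted p = 0.0372). The call ended without TG replicate 1 (0.0934), TG replicate 2 (0.133) or nTG replicate 2 (0.103). Ddit3, also known as CHOP, had a log2 change of 0.72 ± 0.17 with a limma adjusted p of 0.0511, and passed after median centring (0.0338), with the stricter filter (0.0322), with robust eBayes (0.0458) and in the fit with replicate number as a block (0.0400). Mafk had 0.44 ± 0.12 and Nfe2l1 0.22 ± 0.09 (SE), neither past the test as reported, and Mafk passed after median centring (limma adjusted p = 0.0495) and with the stricter filter (0.0478).

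Of 15 other bHLH and bHLH-PAS factors, all were measured and 12 tested. Of these 1 rose and 0 fell, while 11 stayed short of the threshold (median log2 change 0.02). The share called higher over all tested probe sets, 4.07%, is near that count. Hif1a, the oxygen-regulated bHLH-PAS factor, had 740.6 and 725.6 on the TG arrays and 560.9 and 490.3 on the nTG arrays, a log2 change of 0.48 ± 0.11 (SE, limma adjusted p = 0.0432). A second probe set of the same kind was also called higher (0.62, adjusted p = 0.0144). The call of the first ended without TG replicate 1 (0.149), TG replicate 2 (0.106) or nTG replicate 2 (0.119) and after quantile normalization (0.0513). Max had a log2 change of 0.68 ± 0.18 and Hes1 of 0.34 ± 0.13, while Usf1, which binds the same E-box letters as the CLOCK pair, had -0.72 ± 0.26 (SE), none past the test. Max passed after median centring (limma adjusted p = 0.0476) and with the stricter filter (0.0446). Usf1 was called lower without TG replicate 2 (log2 change -1.07, limma adjusted p = 0.0375), while its log2 change was -0.36 without TG replicate 1 (0.512). Its second tested probe set was at -0.14 (adjusted p = 0.799).

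The tissue label and the makeup of the samples were read from marker lists. All 7 measured ventricular muscle markers were above the filter, with Myh6, the alpha myosin heavy chain, at 8729.7 and 7950.4 on the TG arrays and 10497.1 and 10715.6 on the nTG arrays. Markers of other cells moved with the groups beside Bhlhe40. Fibroblast markers were called higher in 6 of 7 cases, with summed signals of 9123.1 and 8708.1 on the TG arrays and 5924.0 and 5675.5 on the nTG arrays. The remaining marker, Pdgfra, went the other way, with 331.9 and 298.3 on the TG arrays and 523.0 and 391.1 on the nTG arrays. Its log2 change was -0.51 (limma adjusted p = 0.106), while a dimmer tested probe set for Pdgfra gave 0.75 (0.118). These counts take the brightest probe set of each gene. The dimmer tested probe sets for Col1a1 (log2 change 0.25), Col1a2 (-0.17) and Col3a1 (0.11 and 0.68) did not pass the test. Among the macrophage markers, a dimmer tested probe set for C1qb (0.10) did not pass either. Macrophage markers were called higher in 3 of 6 tested (7 measured), with sums of 3255.3 and 3350.8 on the TG arrays and 2017.7 and 2282.4 on the nTG arrays. Ventricular muscle markers were called lower in 5 of 7, with sums of 50635.3 and 51883.9 on the TG arrays and 66880.9 and 65604.1 on the nTG arrays. Their part in the values of Bhlhe40 was not tested.

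Liver genes moved with the groups beside the members, and clock and PAR bZIP genes are expressed in liver as well. Of 9 measured hepatocyte markers 7 were tested and 4 called lower, with the sums given beside the clock-driven outputs. Apoa1 had 10.2 and 11.5 on the TG arrays and 505.3 and 836.4 on the nTG arrays. The nTG array with the higher hepatocyte sum was replicate 2. Among the tested members, it had the higher nTG signal for Clock, Per1 (255.1, against 251.8 in replicate 1), Dbp and Bhlhe40. It had the lower nTG signal for Bmal1 (46.8, against 70.2), Per3 (121.0, against 164.5), Cry1 (84.0, against 115.4) and Tef. The part of liver RNA in the values of the members was not tested. Of the other marker lists, atrial genes were called higher in 2 of 3 tested (Myl7 and Nppa) and smooth muscle in 1 of 3 (Acta2). Adipocyte genes were called lower in 1 of 2 (Adipoq). Skeletal muscle genes had 1 higher call (Acta1) and 1 lower call (Ckm) of 5. Endothelial (5 tested) and blood genes (2 tested) had no call. Cells of those types cannot be told apart here from altered RNA of these genes in ventricular muscle cells.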

How the data were processed

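Affymetrix 1-colour arrays with 12488 probe sets were made from column-purified total RNA, labelled with biotin, per the labels' protocols. The authors deposited linear signal intensities, 1 for each probe set on each array, all above 0. How the signal was computed and scaled is, in the sources used here, not given. The mean signal with the extremes trimmed was 150.1 on every array, so the arrays shared a common trimmed mean while their medians differed. Array medians were 49.0 and 50.6 (TG) and 53.9 and 52.3 (nTG), and the number of arrays limits the precision.

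Signals were put on a log2(signal + 9) scale; 9 is the rounded 20th percentile of all signals. The 66 control probe sets and the lowest 40% by mean log2 value were left out. The 7453 remaining probe sets were fitted with lmFit and eBayes with a variance trend (limma 3.58.1, R 4.3.3). Tests were two-sided and adjusted by Benjamini-Hochberg over all of them; a call is an adjusted p at or below 0.05. The prior carried 5.05 degrees of freedom beside 2 residual ones. The fit was run on simulated data drawn from its own fitted variance model with independent normal errors. Such data check the code and cannot show shared array effects or another shape of spread.

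The members and lists were chosen with earlier results of these data known. Every member probe set is given. From each related list any called gene was named, with up to 3 more by smallest p. A list takes the brightest probe set per gene. The spelling of the RORE was changed to the wider consensus after a first search. 10833 probe sets had a single symbol, named through the platform annotation. Alternatives were other pseudocounts, scalings, filters, variance models, a looser threshold, a replicate block and leaving out each array.

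Arrays with the same replicate number did not deviate together (correlation of deviations -0.06 over 7453 probe sets), and the labels do not say that numbers mark shared animals.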

Additional observations from a re-analysis of the deposited data

How the results depend on the processing

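Counts over all probe sets were 303 higher and 288 lower as reported. They were 172 and 157 without the filter, 44 and 34 with eBayes without the trend, and 477 and 484 at an adjusted p of 0.10. The ordinary test gave 0 and 0, with 605 and 570 at an unadjusted p below 0.05. Median centring gave 397 and 197. Leaving out single arrays gave 125 to 232 higher and 158 to 191 lower. The count of member probe sets called higher, 1 as reported, was 0 without the filter, with eBayes without the trend and in the ordinary test, and 0 to 1 when an array was left out. The count called lower was 0 throughout. Under the 3 settings just named, the calls of Alas1, Cirbp, Pdk4, Fkbp5, Nr4a1, Atf5 and Hif1a ended as well. The replicate block gave 348 higher and 345 lower, and the call of Bhlhe40 held (limma adjusted p = 0.0300); of the results followed, Ddit3 alone changed its call.

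The sign of uncalled changes near 0 was not fixed. Dbp was at 0.0203 after median centring and from -0.12 to 0.00306 when an array was left out; Bmal1 ran from -0.21 to 0.30, Clock from -0.10 to 0.15 and Per3 from -0.14 to 0.27. Over 33 log2 changes and up to 15 settings, 418 values kept direction and side of the threshold, 51 lost it, 19 gained it and 5 changed sign. Npas2, Per2 and 2 probe sets of Cry1 were below the filter, and the sign of Npas2 changed with scaling (-0.05 as deposited, 0.03 after median centring).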
